A study of Dichotomyctere nigroviridis with 22 samples.

Results

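These results describe the response to phoenixin-14 (PNX-14) in the 7 hypothalamus libraries of green-spotted puffers that held little egg RNA, out of 12 hypothalamus libraries and 22 libraries in all. The 7 were chosen by their level of zpax1, a zona pellucida gene of the egg envelope: a library was kept when zpax1 took fewer than 500 reads per 1000000 counted (RPM). This left 4 hypothalami of PNX-14 fish (HT1, HT2, HT5 and HT6) and 3 of control fish (HC3, HC4 and HC6). Each library is from a separate vitellogenic female of wild origin. The PNX-14 fish had an intramuscular injection of puffer-specific PNX-14 at 100 ng/g body weight, and the control fish had the vehicle alone. The vehicle is saline in the deposited labels and sterile water in the methods of the study. Hypothalami were taken 24 h after injection, and no gene was altered in any fish. The response asked about is that of the whole hypothalamic transcriptome, in libraries where ovary transcripts take the smallest share of the reads.

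Phoenixin is a small peptide cut from the protein of the smim20 gene. In mammals it acts in the hypothalamus on reproductive hormone release, feeding and inflammation, and its proposed receptor is GPR173, a member of the SREB family of receptors conserved in brain. The hypothalamus holds neurons that make peptide hormones such as oxytocin, vasopressin and gonadotropin-releasing hormone, along with glia, blood vessels and microglia, the resident macrophages of brain.

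Levels of zpax1, in RPM, were 317 in HT1, 216 in HT2, 213 in HT5 and 57.7 in HT6, against 28.7 in HC3, 245 in HC4 and 137 in HC6. HT1 was the library nearest to the limit from inside, and HT3, with 776 RPM, was the nearest outside it. HT4, HC1, HC2 and HC5 held between 1201 and 1673. In the 10 ovaries zpax1 took 6039 to 13025 RPM. Because the choice rested on zpax1, it and the other oocyte genes are described here without a test. The summed level of the 24 oocyte genes listed was 404 to 1405 counts per 1000000 after TMM normalization (CPM) in PNX-14 hypothalami and 178 to 1027 CPM in control hypothalami, so the ranges overlapped, while 22 of the 23 oocyte genes measured well enough to enter the test lay higher after PNX-14, with a median log2 fold change of 0.69. Egg RNA was thus low in both groups but not equal between them, and its part was examined only in part, by a fit with log2 zpax1 as a term and by other zpax1 limits, given below for the lists they were read for.

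**Figure D1:**
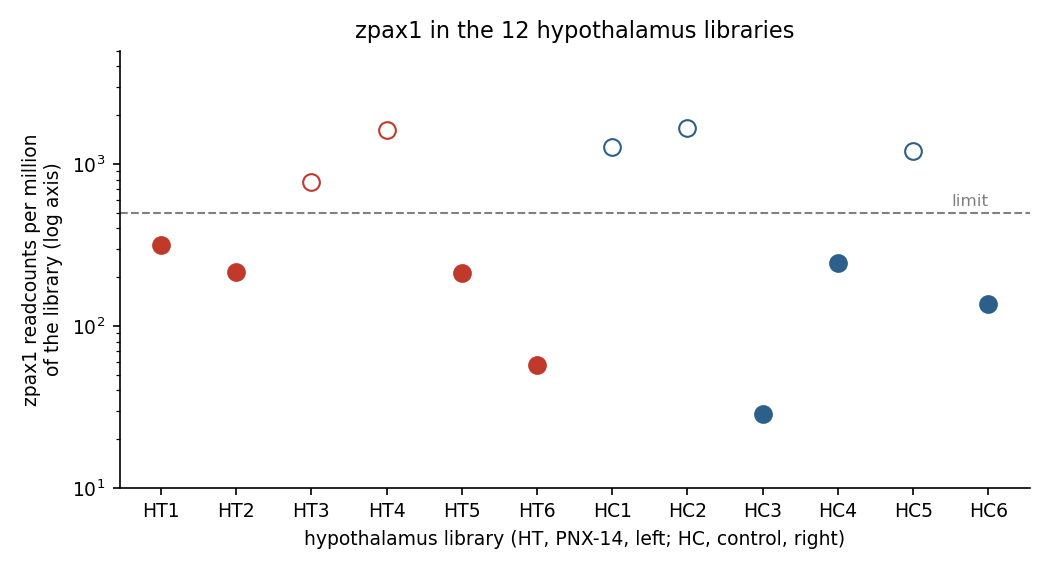
Level of zpax1 in reads per 1000000 counted (RPM) in each of the 12 hypothalamus libraries, on a log axis, with PNX-14 (HT) at left and control (HC) at right. Filled points lie under the dashed limit of 500 and are the 7 libraries described; open points, from 776 to 1673, are the others.

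The 7 libraries held 9140910 to 12615772 counted reads and 18958 to 19176 genes with a count. Hypothalamic hormone genes were abundant in all of them. Levels of oxt, the oxytocin-family gene, were 892 to 3508 RPM, against 0.233 to 3.73 in ovaries, and those of avp, the vasopressin-family gene, were 78.1 to 339 RPM, against 0.233 to 8.14 in ovaries. Pituitary genes were nearly absent, as the 7 listed summed to 3.57 to 5.38 CPM after PNX-14 and 2.03 to 5.3 CPM in controls, with prl at 0. HC3 stood apart from the other 6 on the first principal component, at 60.2, with the others between -29.4 and 7.44.

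No gene passed the adjusted threshold. In all, 17266 genes were tested with edgeR's quasi-likelihood test, and 0 of them (0%) reached an adjusted p under 0.05, the smallest adjusted p being 0.653. By DESeq2 there were 5 such genes and by limma-voom 0. At the unadjusted p under 0.05 that the study used for its gene sets, edgeR found 1307 genes (7.57%), of which 678 (3.93%) were higher and 629 (3.64%) lower after PNX-14. All 4 PNX-14 libraries lay above all 3 controls in 752 genes (4.36%) and below them in 727 (4.21%). The median log2 fold change over all tested genes was 0.01, and the middle 50% of genes lay between -0.15 and 0.18. In what follows, p is the unadjusted p of edgeR, and a gene called higher or lower passed only this threshold, with an adjusted p of 0.653 or more.

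TGFB3 had the smallest p among the lower genes. It (ENSTNIG00000016351, chromosome 14 from 5535035 to 5538973, TETRAODON 8.0) codes for a secreted ligand of the TGF-beta family and was at 6.45, 9.14, 6.12 and 8.4 CPM in the 4 PNX-14 hypothalami (HT1, HT2, HT5 and HT6, the order kept below) and at 18.9, 13.9 and 15.9 CPM in the 3 controls (HC3, HC4 and HC6). Every treated library was below every control, and the mean was 7.53 ± 1.47 CPM after PNX-14 and 16.3 ± 2.47 CPM in controls (SD, n = 4 and 3), a log2 fold change of -1.11 (SE 0.21). DESeq2 gave it an adjusted p of 0.023. A second gene with the same name, tgfb3 on chromosome 10, averaged 17.4 ± 1.18 CPM after PNX-14 and 20.9 ± 4.22 CPM in controls, and its groups overlapped. The 28 genes listed for the family were ligands, receptors, SMADs and regulators of SMAD signaling, with 14 on each side of 0. Of them 2 were higher and 2 lower (7.14% each, beside 3.93% and 3.64% of all genes). Besides TGFB3 the lower one was skia (ENSTNIG00000001491), a repressor of SMAD signaling, with a log2 fold change of -0.36. The higher ones were tgif1 and smad7, which also restrain SMAD signaling, at 0.39 and 0.26.

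The other genes that DESeq2 called were ENSTNIG00000008462, uap1l1, ppiaa and ENSTNIG00000000350, and apart from ppiaa they were picked out after their values were seen. ENSTNIG00000008462 (chromosome 13, 8886929 to 8892874), annotated with a malate dehydrogenase domain, had the smallest edgeR p of all genes. It was at 27.7, 30.4, 23.2 and 27.4 CPM after PNX-14 and at 13.3, 14.3 and 15.4 CPM in controls, a fold of 1.89 (log2 0.92, SE 0.15). All treated libraries thus lay above the highest control. The peptidyl-prolyl isomerase gene ppiaa was at 124, 156, 155 and 152 CPM after PNX-14 and at 86.3, 106 and 88.3 CPM in controls, a log2 fold change of 0.65. Levels of uap1l1 were 96.3, 163, 100.4 and 70.8 CPM after PNX-14 and 57.4, 43.2 and 38.3 CPM in controls. ENSTNIG00000000350, annotated with an integrase domain as found in mobile elements, was scarce, at 1.06, 0.194, 0.105 and 0.29 CPM after PNX-14 against 1.45, 13.1 and 3.19 CPM in controls, with HC4 far above the other controls.

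Genes of phagocytes leaned higher after PNX-14, with none past the adjusted threshold. Of the 28 genes listed for microglia and macrophages, 24 lay above 0 on the log2 scale, with a median of 0.20 against 0.01 over all genes, and 4 were higher at p under 0.05 (14.3%, beside 3.93% of all genes) and none lower. Among them were slc7a7, an amino acid transporter that microglia need in zebrafish, cybb, which codes for the catalytic subunit of the phagocyte NADPH oxidase, and p2ry12, a purine receptor of microglia. The transporter slc7a7 was at 34.4, 34.1, 29.96 and 33.6 CPM after PNX-14 and at 17.9, 19.7 and 22.9 CPM in controls (log2 fold change 0.71, SE 0.14). For cybb the values were 53.2, 66.1, 58.0 and 75.4 CPM after PNX-14 and 30.8, 38.2 and 44.5 CPM in controls. In both genes the lowest treated library was above the highest control. All treated libraries were above all controls in 3 of the 28 genes and below them in 1, beside 4.36% and 4.21% of all genes. The 4 members below 0 included csf1ra (-0.29) and aif1l (-0.18), neither at p under 0.05. Without HC3 the list median was 0.10. The whole list summed to 1837 ± 350.2 CPM after PNX-14 and 1431 ± 384 CPM in controls, and those sums overlapped. In bulk tissue, more cells of a type and more RNA per cell cannot be told apart.

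Lymphocyte genes leaned the same way. Among 22 genes of T and NK cells the median log2 fold change was 0.44. Of these, 7 were higher (31.8%, beside 3.93% of all genes) and none lower. Among the 7 were dok2, tbx21, stat4, prkcq, cd8b and itk. The adaptor gene dok2, which acts in immune receptor signaling, was at 123, 129, 91.5 and 102 CPM after PNX-14 and at 51.5, 74.2 and 79.2 CPM in controls. The transcription factor gene tbx21, which directs type 1 T cells, was at 15.5, 30.9, 15.1 and 16.4 CPM after PNX-14 and at 7.93, 12.1 and 10.8 CPM in controls. HT2 was far above the other treated libraries for tbx21, yet each of them was above every control. All treated libraries were above all controls in 4 of the 22 genes, beside 4.36% of all genes. Transcripts of cd8b, a T cell coreceptor chain, were rare, with 2.43 to 3.96 CPM after PNX-14 and 0.193 to 1.91 CPM in controls.

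All 12 genes listed for B cells had a positive log2 fold change, with a median of 0.58. At p under 0.05, 6 (50%, beside 3.93% of all genes) were higher: cd79b, pigr, btk, syk, pax5 and irf4a. The B cell receptor gene cd79b was at 20.5, 29.3, 13.9 and 31.7 CPM after PNX-14 and at 6.29, 12 and 11.9 CPM in controls (log2 fold change 1.24, SE 0.32). Its groups did not overlap, but those of the other 5 did, and only 1 of the 12 (beside 4.36% of all genes) had all treated libraries above all controls. The kinases btk and syk are also used by myeloid cells, and pigr, the polymeric immunoglobulin receptor gene, is not specific to B cells. HT5 was the lowest treated library for cd79b, btk, stat4 and itk. The B cell list summed to 808 ± 84.7 CPM after PNX-14 and 665 ± 95.0 CPM in controls, and the T and NK list to 605 ± 96.9 CPM and 443 ± 67.5 CPM in the same order, all with overlap. With the zpax1 limit at 1000, which adds HT3, none of the T and NK or B cell genes was at p under 0.05. Their medians were 0.28 and 0.37. Over all 17343 genes of that fit, 640 were higher and 349 lower. With log2 zpax1 as a term, 3 microglia, 6 T and NK and 5 B cell genes were higher, beside 588 of all 17266 genes.

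Receptors for cytokines leaned higher as well, with a median log2 fold change of 0.43 over 23 genes. Of these, 5 were higher (21.7%, beside 3.93% of all genes) and 1, lifra, was lower (4.35%, beside 3.64%). The leading members were il10rb, a chain shared by receptors of the interleukin-10 family, and il17re, a chain of the receptor for interleukin-17C. Levels of il10rb were 16, 15.8, 12.9 and 14.1 CPM after PNX-14 and 5.03, 7.9 and 9.41 CPM in controls, which gave a log2 fold change of 0.98 (SE 0.23). For il17re they were 20.6, 36.9, 19.3 and 22.6 CPM after PNX-14 and 9.48, 13.3 and 13.7 CPM in controls, or 2.04-fold (log2 1.03, SE 0.25). The tumor necrosis factor receptor gene tnfrsf1a was at 46.0 to 52.0 CPM after PNX-14 and at 34.3 to 40.2 CPM in controls. None of these 3 genes overlapped between the groups, and the rule that named il10rb and il17re required this. All treated libraries were above all controls in 3 of the 23 genes, beside 4.36% of all genes. The 9 cytokines and chemokines tested had a median log2 fold change of 0.29, and 8 of them lay above 0. At p under 0.05, 1 of the 9 was higher, beside 3.93% of all genes, and none was lower. The higher gene was tnfsf13b, which codes for the B cell survival factor BAFF. Levels of tnfsf13b were 43.3, 58.9, 50.3 and 46.3 CPM after PNX-14 and 19.2, 39.3 and 32.4 CPM in controls.

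Intracellular innate signaling genes had lower medians than the cytokine receptor genes. Over 33 NF-kB and innate sensing genes the median was 0.20, and 27 lay above 0. Of these, 3 (ripk2, tab2 and nfkb1) were higher, or 9.09% beside 3.93% of all genes. Only 1, tlr7, was lower (3.03%, beside 3.64% of all genes). All treated libraries were above all controls in 6 of the 33 genes and below them in 1, beside 4.36% and 4.21% of all genes. The NF-kB subunit gene nfkb1 was at 71.8, 87.2, 79.8 and 65.0 CPM after PNX-14 and at 25, 57.5 and 61.9 CPM in controls, so that HC3 was much the lowest. The same library was lowest for psmb9a, an immunoproteasome subunit gene and the only higher one of 19 interferon response genes, at 24.3 CPM beside 59.3 and 50.4 CPM in the other controls and 71.3 to 96.0 CPM after PNX-14. Interferon response genes had a median of 0.12. Without HC3 it was -0.08, and without HC4 it was 0.63. Without HC4, 7 of the 19 were higher, beside 883 of all 17462 genes. The summed list was at 1997 CPM in HC4, 481 CPM in HC3 and 988 CPM in HC6. After PNX-14 it was at 823 to 1401 CPM. With all 7 libraries the 1 higher gene was 5.26% of that list, beside 3.93% of all genes. Among 25 JAK-STAT signal transducers the median was 0.03. Here stat4 and both socs3 genes, feedback inhibitors of cytokine signaling, were higher, by 0.77, 0.85 and 0.49 on the log2 scale. They made up 12% of the list, beside 3.93% of all genes.

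**Figure D2:**
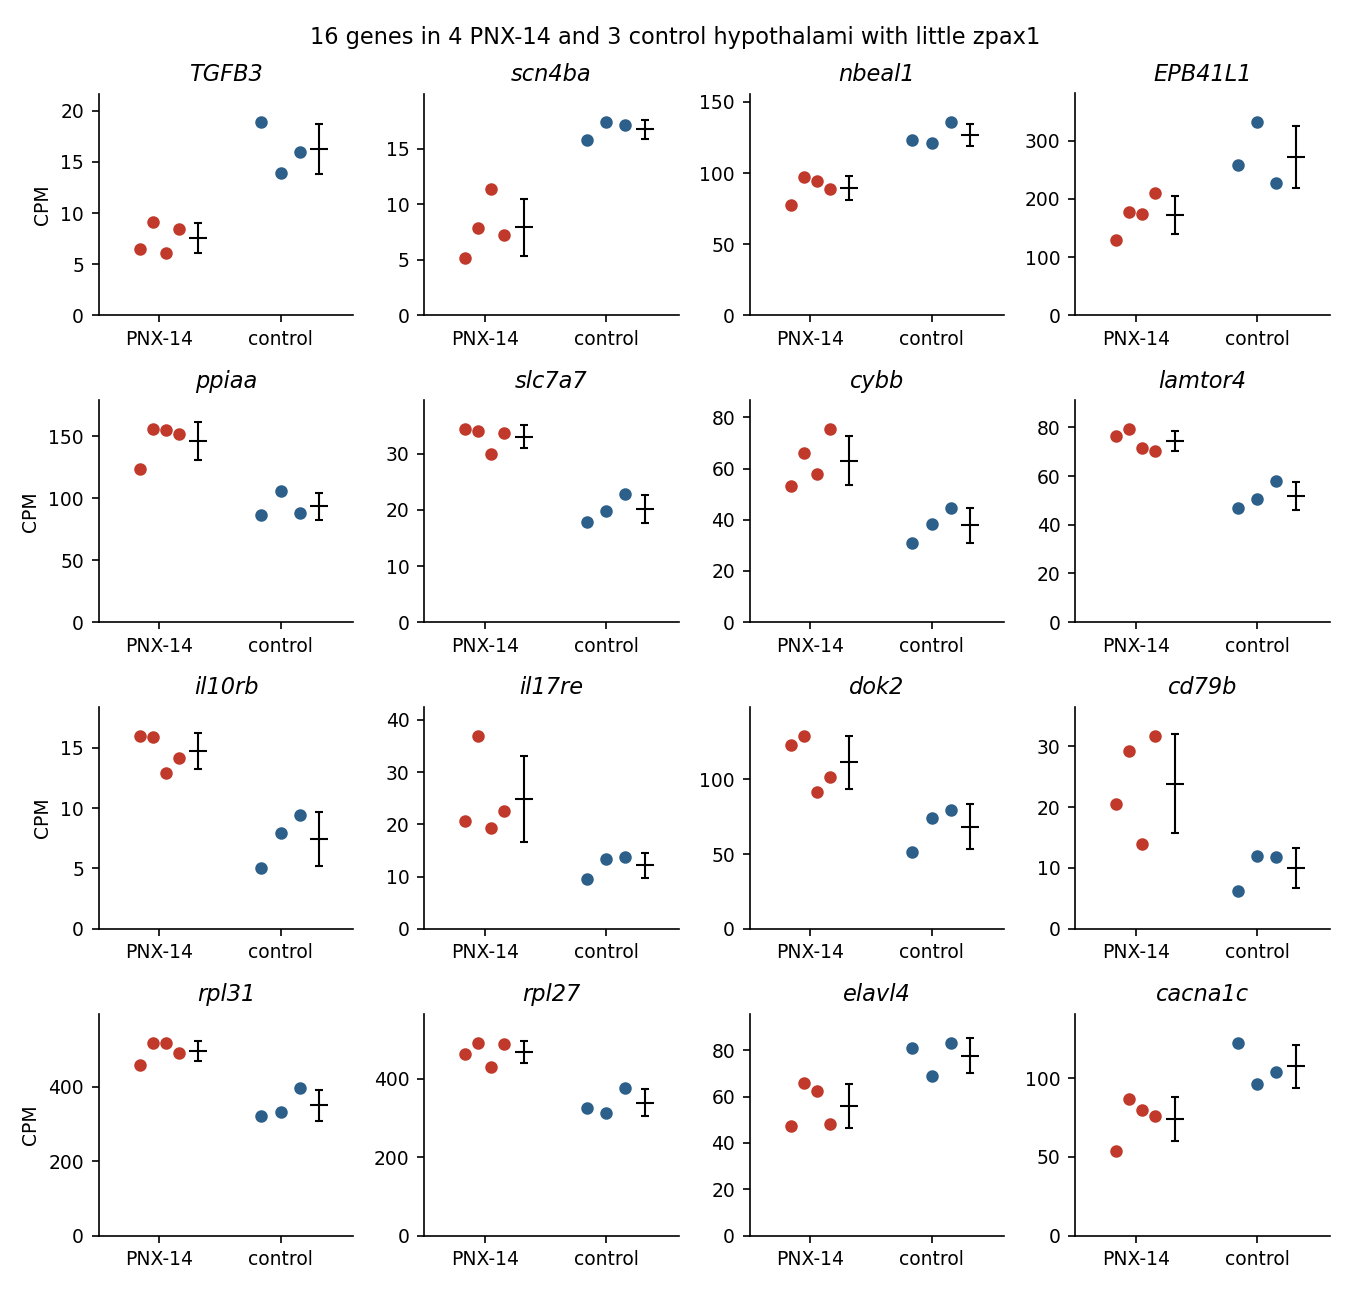
CPM of 16 genes in each PNX-14 library (left, red, n = 4) and each control library (right, blue, n = 3) with little zpax1; black marks are the mean and SD of each group. In all 16 genes no treated library lies within the range of the controls, as for TGFB3 (6.12 to 9.14 against 13.9 to 18.9 CPM). Most were chosen by a rule that required this and the rest with their values known, so the separation follows from the choice. Of all genes, 4.36% had every treated library above every control and 4.21% below.

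Genes for proteins of the cytosolic ribosome formed the largest group that leaned one way. The list was drawn up by gene symbol and had 82 tested members, called ribosomal genes below. Among them were the kinase genes rps6ka2 and rps6kc1, which do not code for ribosomal proteins (log2 fold changes -0.22 and -0.21). Of the 82, 76 had a positive log2 fold change and 30 (36.6%, beside 3.93% of all genes) were higher at p under 0.05. None was lower, and the median was 0.26. In 26 members, beside 4.36% of all genes, all treated libraries were above all controls, and in 1, beside 4.21%, all were below. The 84 genes together took 35216, 37802, 31989 and 39847 CPM after PNX-14 and 29397, 30717 and 30582 CPM in controls, so the sums did not overlap either. Mean sums were 36214 ± 3395 CPM after PNX-14 and 30232 ± 726 CPM in controls (SD). The individual differences were small. The gene rpl31 was at 458, 516, 518 and 490.1 CPM after PNX-14 and at 321, 333 and 398 CPM in controls (log2 fold change 0.50, SE 0.11), and rpl27 was at 463, 491, 429.6 and 487 CPM after PNX-14 and at 325, 313 and 377 CPM in controls. For rps3 and rps2 the log2 fold changes were 0.42 and 0.47.

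Nuclear genes of oxidative phosphorylation leaned less, with a median of 0.16 over 77 genes. At p under 0.05, 8 were higher (10.4%, beside 3.93% of all genes) and 1 was lower (1.3%, beside 3.64%). The cytochrome oxidase subunit gene cox7c averaged 195 ± 9.63 CPM after PNX-14 and 149 ± 17.9 CPM in controls, with no overlap. All treated libraries were above all controls in 11 of the 77 genes, beside 4.36% of all genes. The 11 proteins encoded in the mitochondrion itself went the other way, with a median of -0.16 and none past the threshold. Their sum was 30771 to 37964 CPM after PNX-14 and 32975 to 47849 CPM in controls.

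Neuronal genes leaned lower. Of 41 neuronal genes tested, 39 had a negative log2 fold change, the median was -0.28, and 7 (17.1%, beside 3.64% of all genes) were lower and none higher. Among the 7 were elavl4, stxbp1a, nefma, gad1b, nlgn1 and camk2a. The neuronal RNA-binding protein gene elavl4 was at 47.4, 66.0, 62.5 and 48.4 CPM after PNX-14 and at 81.0, 68.9 and 83.2 CPM in controls (log2 fold change -0.47, SE 0.14). Levels of stxbp1a, which is needed for synaptic vesicle fusion, were 258, 383, 394 and 312 CPM after PNX-14 and 457, 423 and 446 CPM in controls. For both genes the highest treated library was under the lowest control, while the other 5 overlapped. In the whole list this held for 3 of the 41 genes, beside 4.21% of all genes. HT1 and HT6 were the lowest libraries for elavl4, stxbp1a and camk2a, and the summed list was lowest in them too, at 7809 and 7467 CPM, beside 9846 and 10337 CPM in HT2 and HT5 and 10063 to 10834 CPM in the controls.

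Ion channel genes leaned the same way. Of 44 genes listed by symbol for voltage-gated sodium and calcium channels, 5 (11.4%, beside 3.64% of all genes) were lower and none higher. The 5 were scn4ba, cacng3b, cacna1c, scn5lab and SCN8A, and the median was -0.12. The gene cacng3b is counted by its name, and its part in such a channel was not examined. The sodium channel beta subunit gene scn4ba was at 5.18, 7.87, 11.4 and 7.24 CPM after PNX-14 and at 15.8, 17.4 and 17.1 CPM in controls (log2 fold change -1.08, SE 0.24). The L-type calcium channel gene cacna1c was at 53.7, 86.5, 80.0 and 75.9 CPM after PNX-14 and at 122, 96.0 and 104 CPM in controls. No treated library reached the lowest control in either gene, and the rule that named scn4ba required this. It held for 5 of the 44 genes, beside 4.21% of all genes. SCN8A, a main sodium channel gene of axons, was at 728 CPM in HT1 and at 989 to 1013 CPM in the other treated libraries, just under HC4 with 1016 CPM.

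Among 24 genes of acetylcholine and monoamine signaling, CHAT, which makes acetylcholine, and both ache genes, which code for the enzyme that breaks it down, were lower. They made up 12.5% of the list, beside 3.64% of all genes. CHAT was at 32.8, 33.5, 21.9 and 21.3 CPM after PNX-14 and at 33.7, 46.5 and 50.2 CPM in controls (log2 fold change -0.67, SE 0.20). HT1 and HT2 came within 1 CPM of HC3. Receptors for opioids, somatostatin and other peptides had a median of -0.10 over 39 genes. Of these, 3 (sstr2a, adcyap1r1a and oprl1) were lower (7.69%, beside 3.64% of all genes) and none higher. With log2 zpax1 as a term, 4 channel genes, 5 of acetylcholine and monoamines and 5 peptide receptors were lower. In the same fit 4 cytokine receptors, 3 NF-kB and innate sensing genes and 7 nuclear oxidative phosphorylation genes were higher. Over all 17266 genes, 471 were lower and 588 higher in it.

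**Figure D3:**
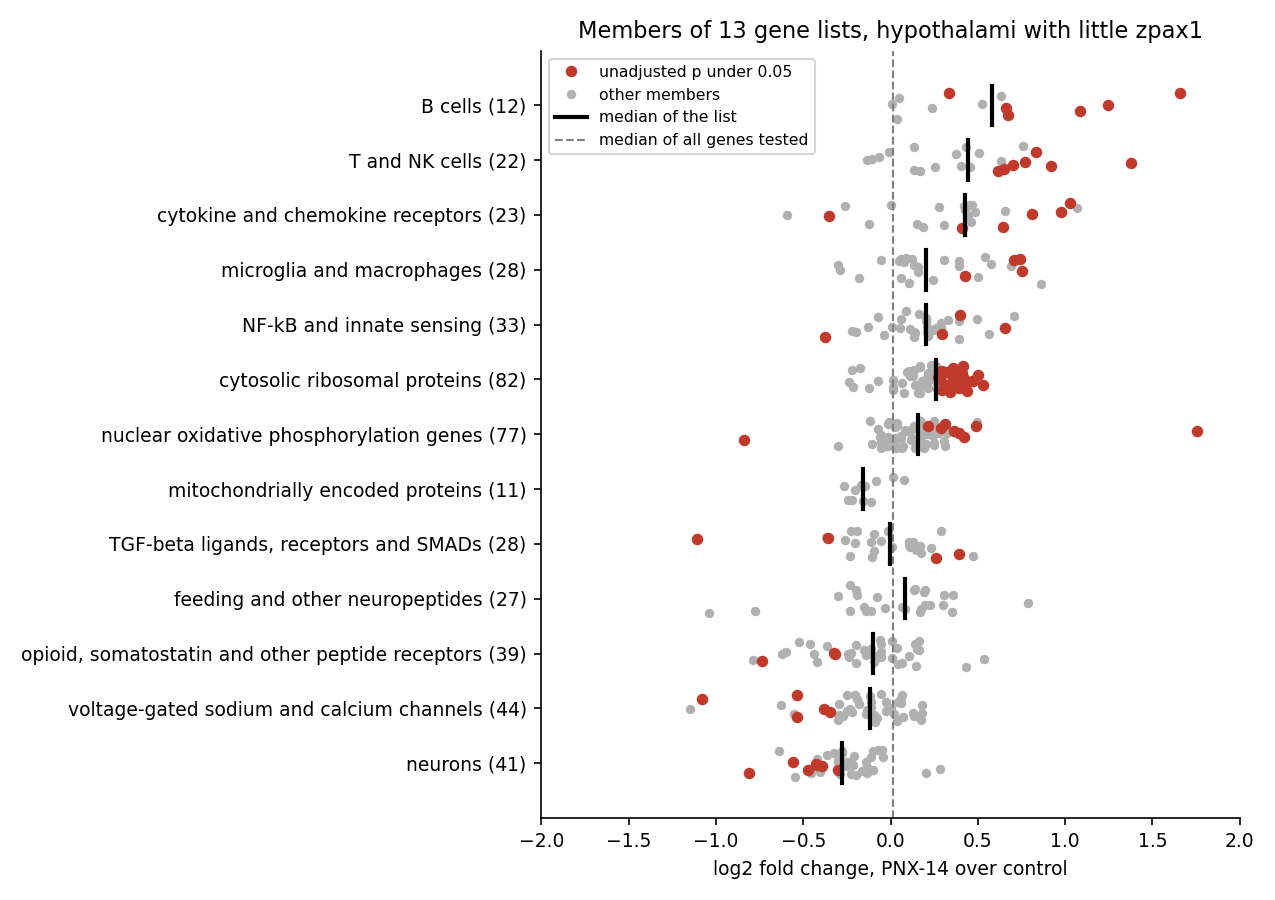
Log2 fold change, PNX-14 over control, of each tested member of 13 gene lists (number tested in brackets); red points are members at unadjusted p under 0.05, black bars the list medians and the dashed line the median of all genes. Medians run from 0.58 for B cells to -0.28 for neurons, with 30 of 82 ribosomal genes red on the right and 7 of 41 neuronal genes red on the left.

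The longest genes leaned lower after PNX-14. When the tested genes were split into 10 classes of gene length, the median log2 fold change was 0.05 in the shortest (60 to 552 bases) and -0.12 in the longest (3147 to 56844 bases). In the longest class 12.4% of genes were lower and 1.04% higher at p under 0.05, and in the shortest 1.66% were lower and 4.18% higher. Across the 17266 genes, which are not independent replicates, length and log2 fold change had a Spearman correlation of -0.18. The longest genes deviated most in HT1, by a median of -0.15 on the log2 scale, and in HC3, by 0.11. HT2, HT5 and HT6 lay between -0.03 and 0.00, and HC4 and HC6 at 0.05 and 0.07. Every control thus lay above every treated library in this class. Ribosomal genes are short (median 598 bases) and nuclear oxidative phosphorylation genes likewise (587), whereas neuronal genes (1443) and channel genes (1964.5) are longer. The neuronal median lies in the class of 1318 to 1533 bases, where the median log2 fold change was 0.04. Genes of T and NK cells (1711) and of NF-kB and innate sensing (1818), which leaned higher, are longer than the neuronal genes by median. Whether gene length has a part in those results was examined with a correction for each library's trend on length, an alternative chosen after seeing the data. It left 504 genes higher and 673 lower. Ribosomal genes then had a median of 0.19 with 18 higher, oxidative phosphorylation genes 0.08 with 5 higher, and neuronal genes -0.30 with 12 lower. Channel genes had a median of -0.12 with 5 lower. T and NK cell genes had a median of 0.40 with 7 higher, and B cell genes 0.53 with 4 higher.

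**Figure D4:**
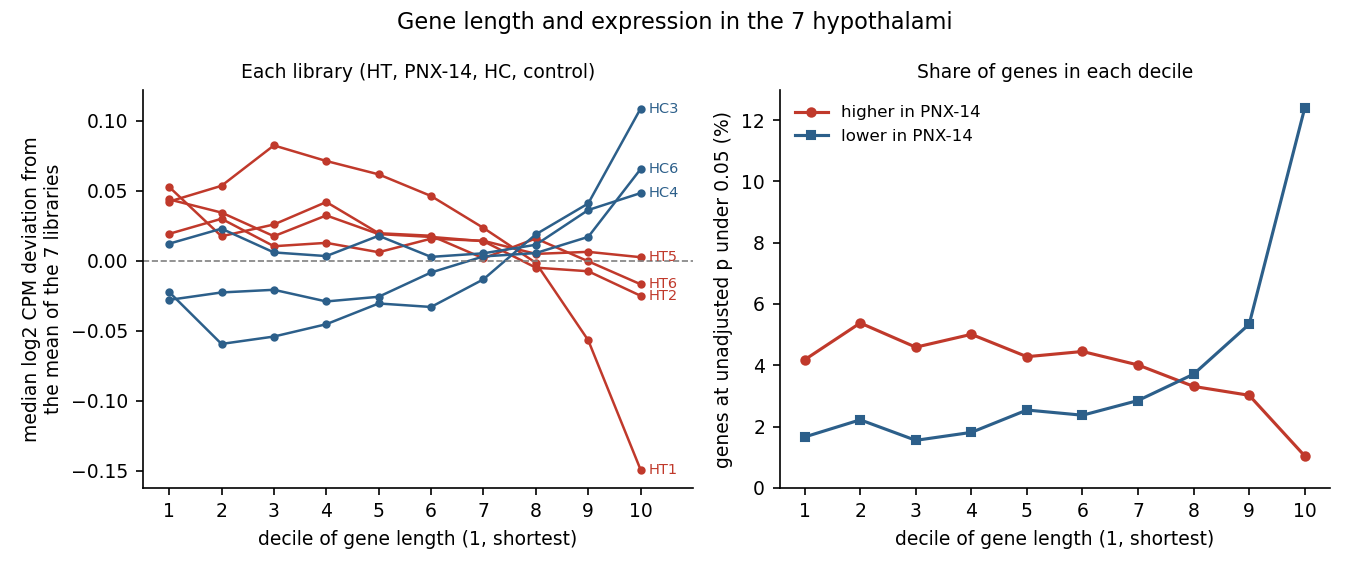
Left, the median log2 CPM deviation from the mean of the 7 libraries by decile of gene length, 1 line per library (red, PNX-14, HT; blue, control, HC); right, the percentage of genes at unadjusted p under 0.05 in each decile, higher (red) or lower (blue) after PNX-14. HT1 (-0.15) and HC3 (0.11) part most at the longest genes, where every control lies above every treated library. There 12.4% of genes were lower and 1.04% higher.

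The count of genes at unadjusted p under 0.05 leaned on single libraries. It was 736 without HT1 and 766 without HC3, beside 1307 with all 7. Counts within lists moved by more than 1.5 times as well. The ribosomal count of 30 was 17 without HC3 and 19 without HT2. The B cell count of 6 was 2 without HT6 and 3 without HT2, HC3 or HC6, and the T and NK count of 7 was 4 without HC3. The neuronal count of 7 was 2 without HT6 or HC6 and 3 without HT1, but 12 without HT2 and 14 without HT5. Microglia genes numbered 7 without HC4, cytokine receptors 3 without HC3, nuclear oxidative phosphorylation genes 4 without HC3 and 13 without HC6, and channel genes 8 without HC6. Of the peptide receptors none was lower without HT1 and 1 without HT6 or HC3, and of the acetylcholine and monoamine genes 1 was lower without HC4. Of the NF-kB and innate sensing genes 1 was higher without HT2 or HC3, and 5 without HT5 or HC4. Of the cytokines and chemokines 3 were higher without HT1 or HC4, beside 1 with all 7. Over all genes, 416 were higher and 320 lower without HT1, 514 and 655 without HT2, and 777 and 848 without HT5. These counts were 695 and 568 without HT6, 417 and 349 without HC3, 883 and 705 without HC4, and 789 and 570 without HC6. Each of these fits held 17132 to 17498 genes. With the zpax1 limit at 1000, the ribosomal count was 10 of 82 (median 0.21) and the neuronal count 2 of 41 (median -0.20). The channel count was then 3 of 44, the cytokine receptor count 2 of 23 and the microglia count 2 of 28. Over all 17343 genes of that fit, 640 were higher and 349 lower. With log2 zpax1 as a term, 33 ribosomal genes were higher and 9 neuronal genes lower, and over all genes 588 were higher and 471 lower.

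The synaptic scaffold gene dlgap2a, the potassium channel gene kcna2a, the calmodulin gene calm1a and EPB41L1, which codes for a membrane skeleton protein, were also among the 12 named genes with the smallest p that were lower without overlap. Their log2 fold changes ran from -0.66 for EPB41L1 to -0.45 for kcna2a. Levels of dlgap2a were 17.5, 19.6, 21.3 and 18.1 CPM after PNX-14 and 28.3, 28.6 and 28.9 CPM in controls, and every treated library was lower. The others were TGFB3, nbeal1 (-0.50), scn4ba, dnah12 (-0.55), an axonemal dynein gene, CNNM3 (-2.30), man1b1a (-0.74), an endoplasmic reticulum mannosidase gene, UBQLN4 (-0.43), which acts in protein breakdown, and cep192 (-0.48), a centrosome gene. This CNNM3 gene (ENSTNIG00000013561) was scarce, at 0.29 to 1.27 CPM after PNX-14 and 1.95 to 5.98 CPM in controls.

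On the higher side the 12 included ppiaa, slc7a7, lamtor4, cybb, rpl31, rpl27, il10rb, kctd14, lonp2, fcho1 and il17re. The gene lamtor4, which codes for a subunit of the lysosomal Ragulator complex, was at 76.4, 79.2, 71.6 and 70.4 CPM after PNX-14 and at 46.8, 50.5 and 58.0 CPM in controls. The peroxisomal protease gene lonp2 averaged 148 ± 15.6 CPM after PNX-14 and 101 ± 16.4 CPM in controls, and fcho1, which acts in endocytosis, averaged 158 ± 22.3 CPM and 110.2 ± 5.66 CPM in the same order.

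Of the SREB receptor genes, gpr173 and gpr85 were read, and neither was at p under 0.05. Other genes of the phoenixin system were not analysed here. The receptor gene gpr173 was at 69.7, 69.5, 64.3 and 81.0 CPM after PNX-14 and at 80.1, 56.4 and 69.0 CPM in controls, a log2 fold change of 0.05 (SE 0.14). Its relative gpr85 averaged 36.2 ± 2.02 CPM after PNX-14 and 36 ± 2.96 CPM in controls (log2 fold change 0.01, SE 0.12). On a scale per length, gpr173 averaged 62.3 FPKM and gpr85 32.3 FPKM over the 7 libraries, against 4771 FPKM for oxt. The hormone gene gnrh2 was near the lower end, at 2.11, 2.33, 0.528 and 3.19 CPM after PNX-14 and at 2.8, 2.05 and 2.63 CPM in controls, and with an SE of 0.50 on the log2 scale only a large difference could have been seen. Levels of oxt were 2531, 3528, 900.2 and 2680 CPM after PNX-14 and 2021, 2275 and 1880 CPM in controls, so HT5 was low and the groups overlapped. Among 27 genes listed as neuropeptides of feeding and other functions none passed p under 0.05, and the median was 0.08. That list also held scgn, which codes for a calcium-binding protein. Of 21 reproductive receptors 1 was higher (4.76%, beside 3.93% of all genes), and the median was -0.03.

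Some further genes that the study or earlier results of these data named for the hypothalamus were read in the 7 libraries. Those given here were chosen after their values were seen. They were found in a comparison that includes these libraries, so the values are no independent evidence. For dkk3a, dpydb and a tgfb3 gene the study also reported significant qPCR changes that correlated with its RNA-seq. That qPCR used RNA from the same set of hypothalami. The Wnt pathway gene dkk3a was at 32.1, 32.5, 34.3 and 30.7 CPM after PNX-14 and at 37.0, 44.4 and 56.9 CPM in controls, and znf395a, a zinc finger gene, was at 9.83, 15.6, 9.28 and 6.86 CPM after PNX-14 and at 5.8, 6.04 and 4.94 CPM in controls. Neither overlapped. A gene named safb (ENSTNIG00000003883) was at 8.56, 11.9, 24.1 and 14.0 CPM after PNX-14 and at 0.484, 6.51 and 0.399 CPM in controls, while the other gene of that name (ENSTNIG00000015470) was at 189 ± 8.24 CPM and 200.2 ± 3.62 CPM in the same order. Near-identical copies can share reads, so the smaller is uncertain. ENSTNIG00000006314, annotated as a tryptase, was at 25.3, 17.6 and 14.7 CPM in HT1, HT2 and HT6 but at 0.528 CPM in HT5, within the control values of 1.26, 0 and 0.478 CPM.

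In the other 5 hypothalami, with 776 or more RPM of zpax1, several lists leaned the opposite way. There 2 PNX-14 libraries (HT3 and HT4) and 3 controls (HC1, HC2 and HC5) were compared in a fit over all 12, with a median log2 fold change over all genes of -0.0021. Ribosomal genes had a median of 0.26 in the 7 libraries with little zpax1 and -0.05 in the 5 with much, neuronal genes -0.28 and 0.22, channel genes -0.12 and 0.15, and genes of chromosome condensation and mitosis 0.22 and -0.33. Smooth muscle genes had medians of 0.37 and -0.28. Oocyte genes, described without a test, had medians of 0.69 and -0.21. For B cells the medians were 0.58 and 0.32, for T and NK cells 0.44 and 0.05, and for microglia 0.20 and 0.05.

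The difference between the sets was tested gene by gene over 17877 genes. By edgeR 0 of them (0%) passed an adjusted p of 0.05, the smallest being 0.785, and 627 (3.51%) were higher and 415 (2.32%) lower at unadjusted p under 0.05 in the set with little zpax1. DESeq2 found 1 gene past the adjusted threshold and limma-voom 0. Of the 82 ribosomal genes 20 were higher in this difference, of the 41 neuronal genes 6 were lower, and of the 29 condensation genes 4 were higher. The gene that DESeq2 called was dpydb, which codes for the first enzyme of pyrimidine breakdown. In libraries with little zpax1 it was at 3.81, 3.01, 2.74 and 1.55 CPM after PNX-14 and at 4.84, 6.6 and 5.9 CPM in controls. In the others it was at 6.23 and 5.2 RPM after PNX-14 and at 63.1, 65.2 and 36.4 in controls. It was lower after PNX-14 in both, by -1.06 and -3.26 on the log2 scale, and the difference was 2.23 (adjusted p = 0.785 by edgeR and 0.032 by DESeq2).

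The other leading genes of the difference were ENSTNIG00000014086, annotated as NLRC3, a gene of innate signaling, fam98b (ENSTNIG00000017243), ENSTNIG00000000408, annotated as the histone methyltransferase EZH2 and too low to be tested in the 7 libraries alone, and C11orf54. Levels of fam98b were 17.1, 11.08, 18.6 and 14.1 CPM after PNX-14 and 7.64, 10.4 and 9.57 CPM in controls with little zpax1, against 14.0 and 12.8 RPM after PNX-14 and 20.3, 36.9 and 23.0 in controls with much. C11orf54 likewise was higher after PNX-14 by 0.74 in the set with little zpax1 and had a log2 fold change of -0.43 in the other. For ENSTNIG00000014086 the log2 fold change was -1.45 in the set with little and 1.08 in the other.

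**Figure D5:**
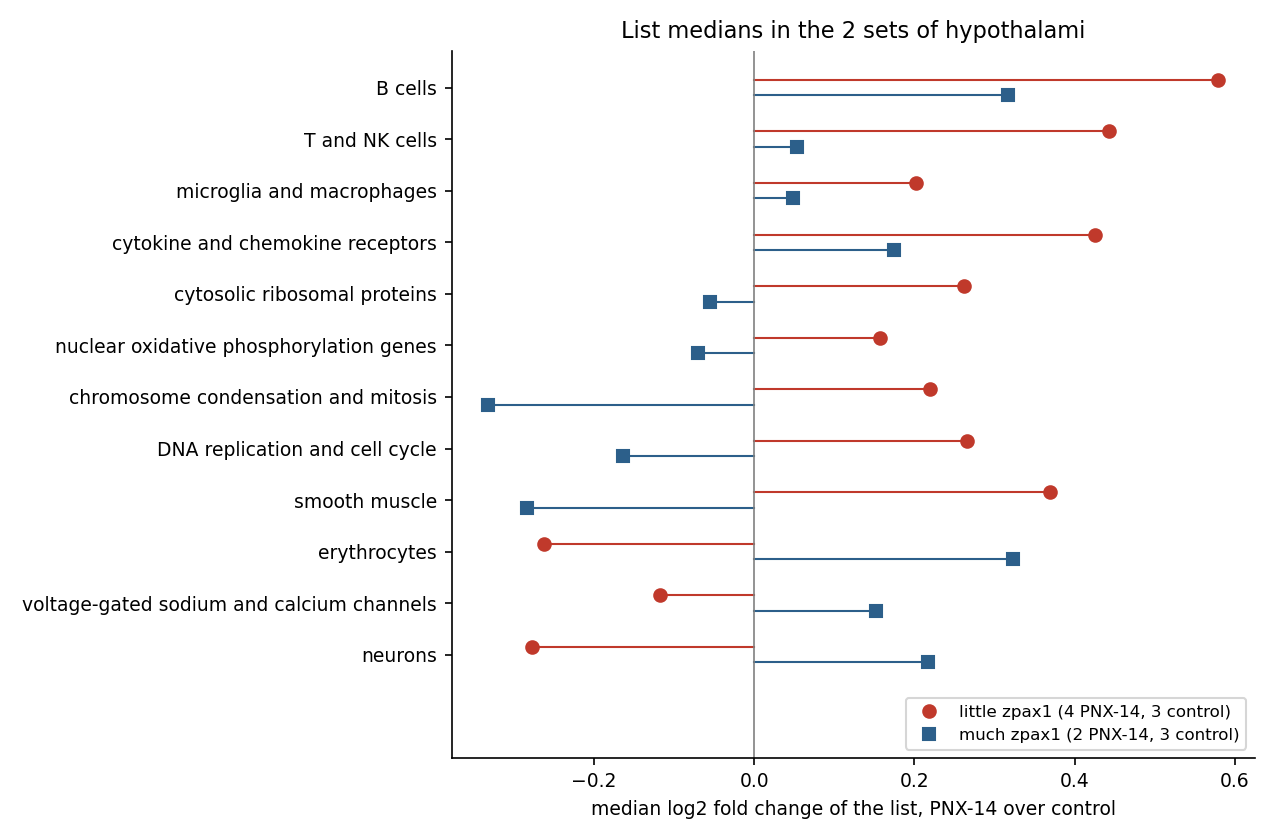
Median log2 fold change, PNX-14 over control, of 12 gene lists in the 7 hypothalami with little zpax1 (red circles) and in the 5 with much (blue squares). Ribosomal (0.26 and -0.05), condensation (0.22 and -0.33), smooth muscle (0.37 and -0.28) and neuronal genes (-0.28 and 0.22) lie on opposite sides of 0, while B cell genes (0.58 and 0.32) do not.

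Markers of other cell types were read beside these results. Smooth muscle genes, 14 of 15 with a count and TPM1 at 0, summed to 410 to 818 CPM after PNX-14 and 330 to 427 CPM in controls, with HT2 highest. In that list smtna and tagln were higher at p under 0.05 (16.7%, beside 3.93% of all genes), and their groups overlapped. The 10 erythrocyte genes summed to 953 to 3912 CPM after PNX-14 and 996 to 6029 CPM in controls, with HC4 highest and HT5 next. Astroglia and ependyma genes had a median of -0.002, oligodendrocyte genes -0.04 and endothelial and pericyte genes 0.11. Condensation and mitosis genes included STK4, cdca8 and spc24 at p under 0.05, all higher (10.3%, beside 3.93% of all genes). The list summed to 742 to 899.7 CPM after PNX-14 and 619 to 867 CPM in controls. Oocytes use many of those genes as well. The median of the condensation list, 0.22, was 0.09 with log2 zpax1 as a term and 0.59 with the zpax1 limit at 1000. It was 0.02 without HC3 and 0.71 without HC4. The part of these cell types and of RNA from blood in the immune, ribosomal and neuronal results was not tested.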

How the data were processed

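RNA-seq was done on hypothalami and ovaries, each hypothalamus from a different fish, and 7 hypothalami were analysed here. The authors made libraries with a strand-keeping kit, aligned reads with HISAT2 after fastp and counted them per gene with featureCounts against the Ensembl TETRAODON 8.0 genome. Their versions and the strand setting of the counting are not given, so antisense, overlapping and near-identical genes can share reads. The deposited read count is a whole number per gene, not normalized. FPKM, computed by the authors from gene length and mapped reads, was used only to compare levels between genes. In all, 32 per-sample columns were not used, among them counts divided by size factors, nor were 6 columns of the authors' comparisons (log2 fold changes, p-values and adjusted p-values).

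Counts were analysed in R 4.3.3. Genes kept by filterByExpr were scaled with TMM factors, and the quasi-likelihood test of edgeR 4.0.16 was run with Benjamini-Hochberg adjustment over all genes. The fits were tested on simulated data. DESeq2 1.42.0, limma 3.58.1 (voom), other normalizations, filters, zpax1 limits, covariates and leaving out each library were alternatives. CPM values are on the TMM scale and RPM are of the column total. Counted reads were 9140910 to 12615772, and no replicate pair agreed within sampling noise.

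The samples, members and gene lists were chosen with earlier results of these data known. Named genes were the 12 with the smallest p in each direction. These had a symbol, a mean of at least 1 CPM and no overlap between groups. Added to them were the 2 leading members of each list in each direction, gpr173, gpr85, gnrh2 and the listed pituitary hormone genes with a count. Those named before for the hypothalamus and up to 5 of the difference between sets were added too. Members named beyond this were chosen after their values were seen. Of the gene symbols, 14886 came from the deposited file and 47 from the supplement of the study. Some genes that the rule would name are not reported here.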

Additional observations from a re-analysis of the deposited data

Results flagged for a closer look

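In the 4 PNX-14 libraries, 12 of 112 values examined had 1 library far from the other 3. Chance gives about 1 in 20 for independent, normally spread values. The values here overlap, since list sums hold some of the named genes, and many genes were chosen by their separation. The count of 12 is therefore not set against that rate. HT1 was low for ppiaa (124 CPM, others 152 to 156), calm1a (213 CPM, others 265 to 266), SCN8A (728 CPM, others 989 to 1013) and the sum of the channel genes (3836 CPM, others 4393 to 4426), and high for smad7 (52.5 CPM, others 47.7 to 48.4). HT2 was high for tbx21 (30.9 CPM, others 15.1 to 16.4) and the smooth muscle sum (818 CPM, others 409.9 to 464), and low for cep192 (28.1 CPM, others 30.3 to 30.7) and the interferon response sum (823 CPM, others 1345 to 1401). HT6 was high for kctd14 (12.5 CPM, others 10.04 to 10.3) and low for the acetylcholine and monoamine sum (429 CPM, others 488 to 496). HT5 was high for the sum of peptide receptors (938 CPM, others 794 to 810.2).

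For 25 of 86 named genes and 5 of 26 lists the PNX-14 response had opposite directions in hypothalami with little and with much zpax1. Here this means that every treated library lay above the mean of its own set's controls in one set and every one below it in the other, with the mean over members used for a list, and list medians on opposite sides of 0 need not meet it. Over all tested genes the share was 11.4%, which is not set against that of the named genes, since these were chosen by their p or by the difference itself. No gene's difference passed the adjusted threshold of edgeR, and the differences of the lists were not tested. The log2 difference, little minus much, was positive for fam98b (1.75), kctd14 (1.25), spc24 (1.23), C11orf54 (1.19), cdca8 (1.17), btk (0.96), nfkb1 (0.77), tnfrsf1a (0.77), rpl27 (0.61), atp5l (0.60) and rps15 (0.48). It was negative for ENSTNIG00000014086 (-2.51), man1b1a (-0.91), EPB41L1 (-0.87), cacna1c (-0.86), camk2a (-0.86), cacng3b (-0.75), nbeal1 (-0.64), dlgap2a (-0.64), ache (-0.62), elavl4 (-0.59), SCN8A (-0.55), gad1b (-0.54), UBQLN4 (-0.51) and skia (-0.47). The names atp5l, ache and skia are each shared with another tested gene, and the value given is for a single gene of that name. List medians of this difference were 0.63 for condensation, 0.38 for ribosomal and 0.24 for nuclear oxidative phosphorylation genes, and -0.29 for channel and -0.49 for neuronal genes.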

How the results depend on the processing

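No paired analysis was possible because the 7 libraries share only replicate number 6 between the groups, and equal numbers are different fish. Genes past the adjusted threshold numbered 0 by edgeR, 5 by DESeq2 and 13 (11 higher, 2 lower) at a zpax1 limit of 200, which leaves 1 PNX-14 library, assumed to vary like the 2 controls. Leaving out each library gave 0 to 2, the 2 (dcdc2b and si_ch211-153b23.5) without HT6. For the difference between sets the number was 0, and 1 by DESeq2. Leaving out each library gave 0 throughout. At unadjusted p under 0.05 the count of 1307 was 736 to 1625 on leaving out each library, lowest without HT1 (416 higher, 320 lower) and 766 without HC3 (417 and 349). With all 12 hypothalami and treatment alone it was 668 (440 and 228), and with 4 group means 909 (642 and 267). It was 989 (640 and 349) at a limit of 1000, 1226 (512 and 714) at 200, and 1177 (504 and 673) with the length correction. Named genes were largely chosen by small p, and the alternatives refit the same or overlapping libraries, so a kept direction was largely fixed in advance. Of the 1307 genes, all 1305 with a value kept theirs without HC3. Of 107 named genes at p under 0.05, 100 kept their direction in all alternatives that gave a value, which is no support for them. The other 7 of the 107 turned with all 12 hypothalami and treatment alone: cdca8 (-0.22), lum (-0.37), smtna (-0.85), tagln (-0.66), dusp2 (-0.074), fam98b (-0.29) and spc24 (-0.090). There the medians of condensation (-0.31), replication (-0.19), smooth muscle (-0.49) and channel genes (0.02) turned as well. Erythrocyte genes had 0.61 without HC4. The causes were not tested. Medians of immune cell, ribosomal, oxidative phosphorylation and neuronal lists kept their sign in all 18 alternatives, which use the same or overlapping libraries. Their size did not always hold. With all 12 hypothalami and treatment alone the neuronal median was -0.06, the nuclear oxidative phosphorylation median 0.03 and the ribosomal median 0.14. Those of T and NK cells, B cells, microglia and neutrophils were then 0.51, 0.58, 0.27 and 0.15. With 4 and 3 libraries, small differences and scarce transcripts were not resolved at this depth.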

Other observations

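Of the matrix genes 2 were lower at p under 0.05 (6.25%) and of the endothelial and pericyte genes 2 (8%), beside 3.64% of all genes. The matrix genes tnc and col6a3 had log2 fold changes of -0.46 and -1.22, and SOX18, an endothelial transcription factor gene, -0.91, all without overlap between groups. All treated libraries were below all controls in 2 of 32 matrix and 2 of 25 endothelial and pericyte genes, beside 4.21% of all genes. The matrix gene lum was higher (1.40), with overlap, and was the only higher one of its list (3.12%, beside 3.93% of all genes). Medians of their lists were -0.09 over 32 matrix genes and 0.11 over 25 endothelial and pericyte genes. Of 38 genes of cholesterol and fatty acid synthesis, lrp8, ACLY and fdft1 were lower at p under 0.05 (7.89%, beside 3.64% of all genes). None was higher, and the median was -0.07. No gene of the heat shock, glucocorticoid, complement or neutrophil lists was at p under 0.05.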
